A study of Aedes albopictus with 6 samples.

Results

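Mitochondria carry their own ribosomes, which translate the few proteins encoded in mitochondrial DNA, all of them parts of the respiratory chain and ATP synthase in animals. Their ribosomal RNAs come from the mitochondrial genome, but their proteins are encoded in the nucleus, made in the cytosol and imported. The small subunit binds the messenger RNA and decodes it, and the large subunit joins the amino acids and feeds the chain into the inner membrane. Oocytes hold large stores of mitochondria, which are passed to the embryo through the mother.

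The genes described here are those encoding mitochondrial ribosomal proteins in *Aedes albopictus*, the Asian tiger mosquito. They were found by their gene descriptions: every gene with counts described as a 28S or 39S ribosomal protein, or as a ribosomal protein that is mitochondrial. This gave 122 genes of the 23529 with values. A further 3 matching genes were blank in all libraries. By the letter in their names, 48 genes belong to the small subunit and 74 to the large one, counting ribosomal protein 63 as large. Genes of the mitochondrial ribosome described in other words are not included. In mammals the proteins called S18a and S30 sit in the large subunit despite their names; here they stay with the S names, and the sums with them moved are given among the alternatives.

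RNA-seq libraries were made from ovaries in a group with overexpression of the piRNA Aalpi18529 (3 libraries) and a control group (3 libraries). A piRNA is a small RNA bound by PIWI proteins, and the submitters' design text says that a mimic was used and that the interest lay in ovarian growth after the blood meal. Strain, age, dose, the kind of control and the number of females per library were not stated in the sources used here, and the piRNA itself was not measured in these libraries. Nothing states that the libraries of a group came from separate batches of females, so the p-values measure the spread between these libraries, which may be technical.

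Libraries held 15719412 to 16111124 estimated counts with overexpression and 15919841 to 16465531 in controls. Ovary germline markers were abundant. The 21 genes described as vasa, nanos, oskar, aubergine, bicaudal or vitellogenin receptor summed to 9260 to 9612 CPM with overexpression and 9142 to 9399 CPM in controls, where CPM is a gene's counts as parts per 1e6 of the scaled library total. The list meant for muscle held genes named for troponin, tropomyosin, muscle myosin heavy chain or myosin regulatory light chain. It also took in the light chain sqh (LOC109422051), at 142 to 151 CPM with overexpression and 133 to 148 CPM in controls. Over the tested genes, this list summed to 1093 to 1127 CPM with overexpression and 1140 to 1174 CPM in controls. Tested genes named for vitelline membrane or chorion summed to 6199 to 6701 CPM with overexpression and 6304 to 6458 CPM in controls. Most of this came from chorion peroxidase genes. Of these, LOC109399008 alone had 3990 to 4390 CPM with overexpression and 4020 to 4180 CPM in controls. The vitelline membrane gene with most reads (LOC109424210) had 10.8 to 15.9 CPM with overexpression and 10.9 to 14.1 CPM in controls. Of 5 genes for the fat body proteins vitellogenin-A1 and apolipophorin, 4 were tested, all but a vitellogenin-A1-like gene (LOC109413684). These 4 summed to 152 to 191 CPM with overexpression and 125 to 156 CPM in controls. Most of this was an apolipophorin-3-like gene (LOC109408437), at 146 to 154 CPM with overexpression and 120 to 149 CPM in controls. Of 103 genes named for phenoloxidase, mostly its activating factors, 52 were tested. These 52 summed to 645 to 652 CPM with overexpression and 632 to 676 CPM in controls. A neurotrypsin-like gene (LOC109426828) had 113 to 155 CPM with overexpression and 148 to 165 CPM in controls, and the 119 other genes named for trypsin or chymotrypsin together had 22.4 to 29.8 CPM with overexpression and 26.1 to 46.4 CPM in controls. The 3 genes for vitellogenin-A1 had 10.9 to 19.0 CPM in overexpression library 1 and at most 1.58 CPM in any other library. Without that library the median log2 fold change of the mitochondrial ribosomal protein genes was 0.038.

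The 122 genes carry 69 protein names, 27 of the small subunit and 42 of the large one. Each of these proteins had reads in every library, though only genes with values were taken. Of the 122 genes, 117 had enough counts to be tested, 47 small and 70 large. These 117 took 0.291% to 0.311% of the scaled total of a library. Their mean levels lay between 1.02 and 90.9 CPM with a median of 20.9 CPM. The median was 18.8 CPM in the small subunit and 22.9 CPM in the large one. CPM is not divided by transcript length, and no transcript lengths were used here, so the levels say how many reads a gene took and do not rank genes by transcript number.

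Summed over the subunit, the small subunit stood at 1289, 1290 and 1296 CPM in overexpression libraries 1, 2 and 3, against 1297, 1246 and 1312 CPM in control libraries 1, 2 and 3. The means were 1292 ± 3.78 CPM with overexpression and 1285 ± 34.6 CPM in controls (SD, n = 3 each), a log2 ratio of 0.01. The controls lay on both sides of the overexpression libraries. The large subunit stood at 1820, 1754 and 1753 CPM with overexpression, against 1731, 1659 and 1791 CPM in controls. The means were 1776 ± 38.6 CPM with overexpression and 1727 ± 66.3 CPM in controls (SD, n = 3 each), a log2 ratio of 0.04. The groups overlapped, and the difference was smaller than the SD of the controls. Both sums were lowest in control library 2. The small subunit's share of the 2 sums was 41.5%, 42.4% and 42.5% with overexpression and 42.8%, 42.9% and 42.3% in controls, with overexpression library 1 the lowest and the other 5 libraries within 1 point of each other. In bulk tissue, fewer cells of a type and less RNA per cell cannot be told apart.

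**Figure D1:**
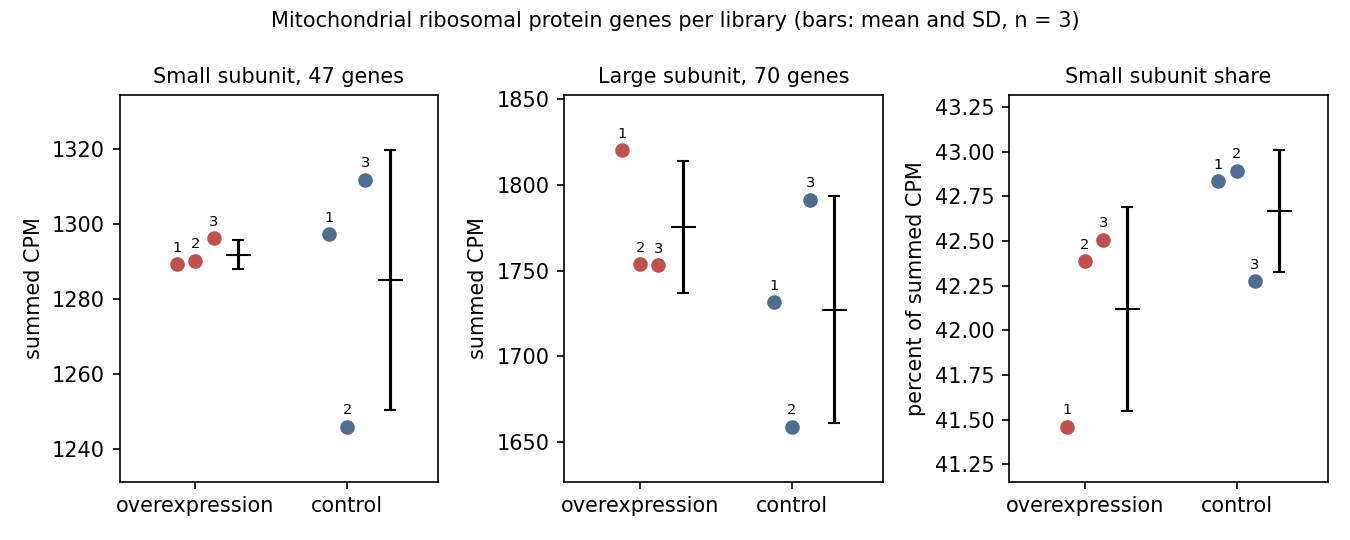
Summed CPM of the tested small subunit genes (left), of the tested large subunit genes (middle) and the small subunit's percent of both sums (right), one numbered point per library, overexpression in red and control in blue, with mean and SD beside them. The y axes do not start at 0. Control library 2 has the lowest sum in both subunits, 1246 and 1659 CPM, and the groups overlap in each sum.

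No mitochondrial ribosomal protein gene passed the test between overexpression and control. With edgeR's quasi-likelihood test, adjusted by Benjamini-Hochberg over all 15540 tested genes, 0 of 117 had an adjusted p under 0.05 and the lowest was 0.963. The background was 2 called genes in all, or 0.0129%. DESeq2 also called 0 of them, against 0.0652% of the genes to which it gave an adjusted p. At an unadjusted edgeR p under 0.05 there were 2 genes higher with overexpression, where the share over all genes was 2.42%, and 1 lower, where it was 2.5%. In 3 genes all overexpression libraries lay above all controls (background 5.24%) and in 6 they lay below (background 5.12%). Counts of this size are near or under the background share and are no result about these genes. DESeq2 gave 1 gene an unadjusted p under 0.05, higher with overexpression, where the share over all genes was 1.39%.

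The fold changes were small. Of the 117 tested genes, 69 were estimated higher and 48 lower, with a median log2 fold change of 0.04, against 0.00 over all tested genes. The quartiles were -0.043 and 0.105, and the whole range ran from -0.62 to 0.53. In 90.6% of them the log2 fold change was under 0.25 in size, against 80.4% of all tested genes. By subunit the median was 0.00 in the small subunit, with 25 higher and 22 lower, and 0.05 in the large one, with 44 higher and 26 lower. The median standard error of a gene was 0.12, against 0.14 over all tested genes. The overall median rests on 1 library: without control library 2 it was -0.004 with 57 of 117 genes higher, and control library 2 held the lowest of the 6 values in 41 of the 117 genes.

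**Figure D2:**
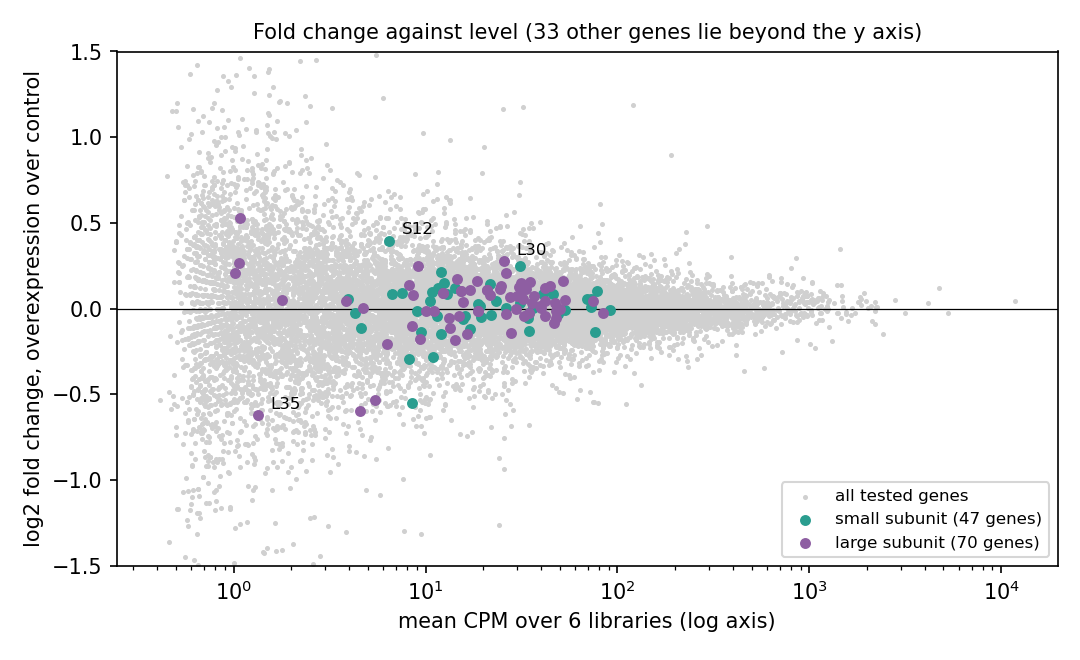
Log2 fold change of overexpression over control (y axis) against mean CPM on a log axis (x axis) for all tested genes (grey), small subunit genes (green) and large subunit genes (purple); the 3 named points have an unadjusted p under 0.05. The mitochondrial ribosomal protein genes lie around 0, within the band of other genes of the same level, and the widest values, -0.62 and 0.53, belong to genes of low CPM.

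Among the small subunit genes that took most reads was S31, a protein found in the mitochondrial ribosome and not in the bacterial one (LOC109399671). It had 90.8, 91.6 and 89.2 CPM with overexpression, against 94.6, 85.7 and 93.4 CPM in controls. Its controls enclose its overexpression values, and its log2 fold change was -0.01 ± 0.06 (SE). S9, whose tail reaches the tRNA in the bacterial ribosome (LOC109411929), had 80.0, 83.9 and 80.2 CPM with overexpression, against 77.1, 70.5 and 80.1 CPM in controls. Its log2 fold change was 0.10 ± 0.07 (SE), with control library 3 just above the lowest overexpression library. S26, another protein without a bacterial counterpart (LOC109408434), had 66.8, 72.7 and 73.0 CPM with overexpression, against 72.0, 63.3 and 69.2 CPM in controls, which overlap. The other 3 of the 6 small subunit genes with the highest CPM are copies of S5, S27 and S35 and are described with their partners below.

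S29, known in mammals as death-associated protein 3, binds GTP and was first described in cell death, and it is named here after its values were seen because the study's title names nurse cell apoptosis. Its single gene (LOC109411591, scaffold NW_021838798.1, positions 55870372 to 55871840) had 52.2, 50.0 and 57.7 CPM with overexpression, against 56.6, 53.1 and 51.4 CPM in controls. The groups overlapped throughout, with a log2 fold change of -0.01 ± 0.08 (SE) at an edgeR adjusted p of 0.9975.

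In the large subunit, L2 and L3 lie at the core where peptide bonds are made. L2 (LOC109399515) had 89.9, 80.8 and 79.6 CPM with overexpression, against 84.6, 85.3 and 85.0 CPM in controls, so that its lone high library belonged to the overexpression group and the other 2 lay under the controls. L3 (LOC109415583) had 77.3, 71.7 and 77.4 CPM with overexpression, against 73.4, 71.0 and 75.04 CPM in controls. Their log2 fold changes were -0.03 ± 0.07 and 0.05 ± 0.06 (SE).

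L24 and L47 lie near the tunnel through which the new protein leaves the ribosome. L24 (LOC109431819) had 54.3, 55.1 and 53.1 CPM with overexpression, against 48.8, 54.4 and 53.4 CPM in controls. L47 (LOC109406138) had 57.8, 53.0 and 54.8 CPM with overexpression, against 49.9, 43.9 and 54.5 CPM in controls. Control library 2 was the lowest L47 value and control library 3 lay inside the overexpression range, and the log2 fold change was 0.16 ± 0.09 (SE; edgeR adjusted p 0.963).

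L38 and L41 are 2 more proteins without a bacterial counterpart. The L38 gene with most reads (LOC109397826) had 46.1, 47.8 and 57.2 CPM with overexpression, against 49.0, 54.5 and 47.8 CPM in controls. L41 (LOC109428035) had 47.4, 46.3 and 47.04 CPM with overexpression, against 47.1, 46.3 and 52.5 CPM in controls. Neither pair of groups came apart.

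The genes with fewest reads were measured with little precision. L34 stood at 0.871, 1.25 and 1.16 CPM with overexpression, against 1.07, 0.915 and 0.848 CPM in controls. It was read at 1 locus (LOC109419357) with 14 to 20 counts per library. The other large subunit genes at the low end were minor copies of L20 (LOC109421689) and L15 (LOC115255830), with means of 1.28 and 1.16 CPM with overexpression and 0.880 and 0.961 CPM in controls. Their log2 fold changes were 0.53 ± 0.38 and 0.27 ± 0.36 (SE). At the low end of the small subunit were minor copies of S10 (LOC115266789), S18b (LOC115265515) and S15 (LOC109407408), with means of 4.41, 4.23 and 3.99 CPM with overexpression and 4.77, 4.31 and 3.85 CPM in controls.

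Most of these proteins are annotated at more than one place in the assembly that was counted. Of the 69 protein names, 28 had 1 gene with values, 31 had 2, 8 had 3 and 2 had 4, so that 94 of the 122 genes share their name with another. All 28 genes at 1 locus had estimates that were whole numbers, to within 0.001, throughout the 6 libraries, but only 2 of the 94 genes at several loci did. Over all genes with values the share was 35.7%, against 24.6% of the 122. Some counting programs give decimals where they split a read over the genes it could have come from, but the program used here is not stated, and how many reads the copies share was not measured. In 4 pairs, those of L14, L17, L42 and ribosomal protein 63, the 2 genes had the same estimate in every library. The L42 pair lies on 1 scaffold (LOC109409672, NW_021838153.1, positions 55489480 to 55489976, and LOC109406062, positions 56089994 to 56090490), and both had 12.88, 13.54 and 11.7 CPM with overexpression, against 11.6, 11.5 and 12.69 CPM in controls. Such pairs cannot be told apart in these data. The counts of tested genes given above hold both genes of each pair; with each pair taken once there were 113 tested genes, 66 estimated higher and 47 lower, with the same median log2 fold change of 0.035. In 22 of the 41 proteins with several loci at least 2 copies lie on the same scaffold.

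A newer RefSeq annotation of the species (assembly AalbF5) lists the gene IDs of 73 of the 122 genes. It holds all 28 genes at 1 locus. Of the 41 proteins with several loci it holds exactly 1 gene ID in 37 and 2 in the other 4, which are L37, L39, L40 and S18a. In 24 of the 41 the gene with the largest mean share of the protein's CPM was a listed one, in 13 it was not, and in the other 4 the 2 leading genes were tied. For L11, the listed gene (LOC109423177) had 3.46 to 6.94 counts per library, while 2 unlisted ones (LOC115266999 and LOC115258245) had 571 to 765 and 387 to 558. For S22, the listed gene (LOC109410370) had 1.07 counts in 1 library and 0 in the rest, and the unlisted one (LOC115259930) had 703 to 873.

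S5, which lines the path of the messenger RNA into the small subunit in bacteria, had most reads of the proteins at several loci. Its 3 genes lie on scaffold NW_021838909.1, LOC115257535 at positions 7542376 to 7543971, LOC115253993 at 6753906 to 6755509 and LOC109429966 at 10352559 to 10354163. LOC115253993 had 24.5, 41.1 and 33.2 CPM with overexpression, against 32.0, 35.6 and 40.5 CPM in controls, so both its lowest and its highest value came from the overexpression group. LOC115257535 had 77.3, 69.2 and 73.1 CPM with overexpression, against 77.6, 72.6 and 67.8 CPM in controls. The sum of all 3 was steadier, at 113, 126 and 118 CPM with overexpression and 120, 120 and 119 CPM in controls. The summed log2 fold change was -0.01 ± 0.05 (SE).

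S27, a protein of the pentatricopeptide repeat family in mammals, has 2 genes on different scaffolds. The one with fewer reads (LOC109410616) had 32.7, 38.5 and 29.4 CPM with overexpression, against 26.7, 31.1 and 26.9 CPM in controls. The other (LOC109410719) had 79.4, 61.1 and 78.5 CPM with overexpression, against 81.2, 79.5 and 79.7 CPM in controls, all of them above the 3 overexpression libraries. In overexpression library 2 the minor copy was at its highest and the major copy at its lowest. Their estimated log2 fold changes had opposite signs, 0.25 ± 0.12 and -0.14 ± 0.10 (SE). The value of the major copy rests on overexpression library 2, without which it was -0.02. The sum of both stood at 112, 99.6 and 108 CPM with overexpression and at 108, 111 and 107 CPM in controls, a log2 fold change of -0.02 ± 0.05 (SE).

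S35, a protein of the mitochondrial ribosome without a bacterial counterpart, has a major gene (LOC109408031) with 74.7, 69.4 and 77.7 CPM with overexpression, against 66.9, 66.8 and 79.5 CPM in controls. Its minor gene (LOC109405159) had 8.61, 4.71 and 7.29 CPM with overexpression, against 10.9, 12.3 and 7.09 CPM in controls. The minor gene's log2 fold change was -0.55 ± 0.27 (SE; edgeR adjusted p 0.963), with control library 3 inside the overexpression range. The summed protein gave -0.01 ± 0.07 (SE).

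L11 helps to form the site where translation factors are set to work. Its 2 well-read genes had 43.6, 43.3 and 40.8 CPM (LOC115266999) and 31.1, 32.6 and 35.8 CPM (LOC115258245) with overexpression, against 42.9, 34.8 and 46.3 CPM and 35.2, 32.9 and 23.5 CPM in controls. Control library 3 was high in the first and low in the second. Another gene (LOC109397291) had 4.91, 3.41 and 5.08 CPM with overexpression, against 3.23, 6.66 and 9.53 CPM in controls, a log2 fold change of -0.54 ± 0.37 (SE). Summed, L11 stood at 79.9, 79.6 and 81.9 CPM with overexpression, against 81.6, 74.6 and 79.7 CPM in controls.

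**Figure D3:**
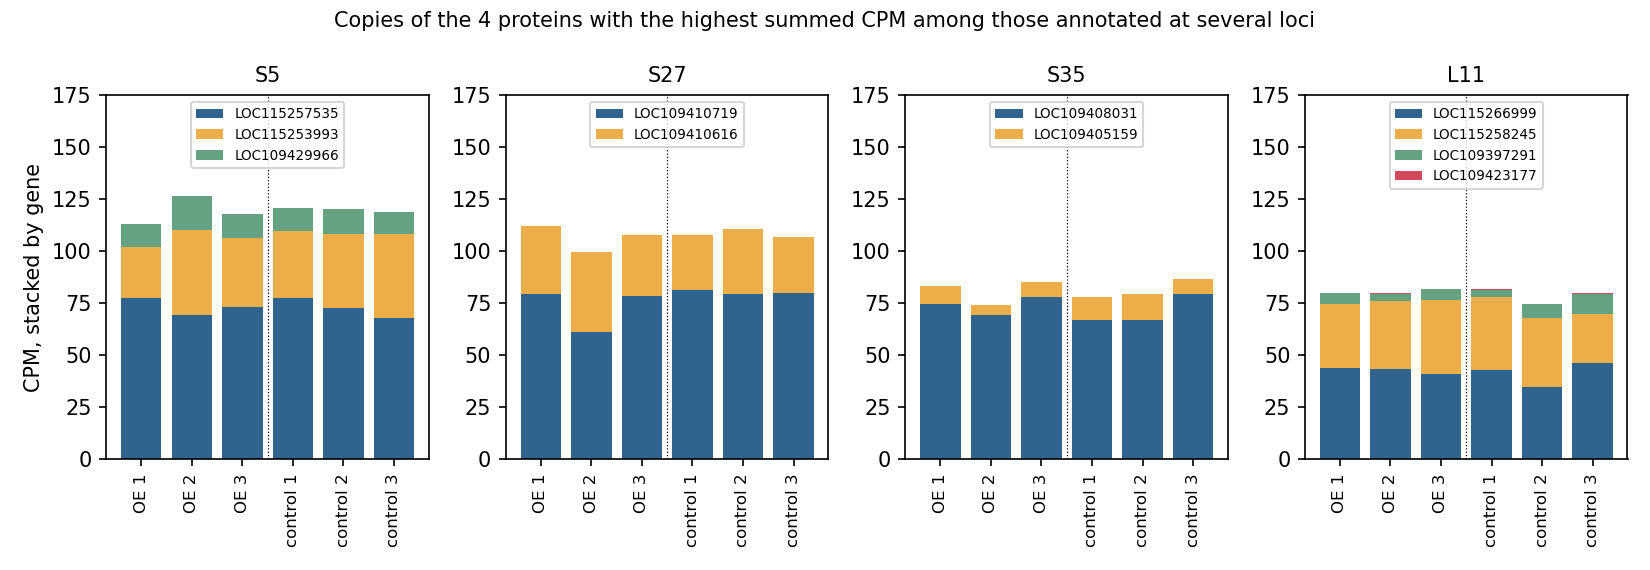
CPM per library of S5, S27, S35 and L11, with the genes of each protein stacked in colour; the dotted line parts the 3 overexpression libraries (OE, left) from the 3 controls. The division between genes differs from library to library, as in overexpression library 2 for S27, where the minor gene is at its highest (38.5 CPM) and the whole bar at its lowest (99.6 CPM).

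The division between copies moved from library to library within both groups. In 20 of the 41 proteins at least 1 gene's share of the protein's CPM varied by more than 10 percentage points over the 6 libraries. The widest shifts, in proteins named after their values were seen, were in S18b, S28 and L28. The larger S18b gene (LOC109432548) held 58.4% to 84.4% of the protein's reads. The minor S28 gene (LOC115261863) had 10.7, 18.3 and 15.5 CPM with overexpression, against 17.8, 15.2 and 8.14 CPM in controls, and held 26.6% to 47.7%. The minor L28 gene (LOC109419950) had 16.04, 19.98 and 16.95 CPM with overexpression, against 11.97, 25.44 and 11.81 CPM in controls. Control library 2 was the highest of the 6 for this gene, while summed L28 was 66.3, 64.0 and 65.1 CPM with overexpression and 59.3, 67.5 and 66.4 CPM in controls.

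Summing the copies brought the spread down to that of single genes. The coefficient of variation over all 6 libraries had a median of 10.6% in the 89 tested genes at several loci, with a range of 1.86% to 59.0%. After summing, the same 41 proteins had a median of 5.85% and a range of 1.21% to 14%. The 28 genes at 1 locus had a median of 5.60% and a range of 2.71% to 16.3%. Counting noise alone would give medians of 6.37%, 3.94% and 3.88%, since the separate genes also have fewer reads. The part of read sharing in this spread was not tested.

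**Figure D4:**
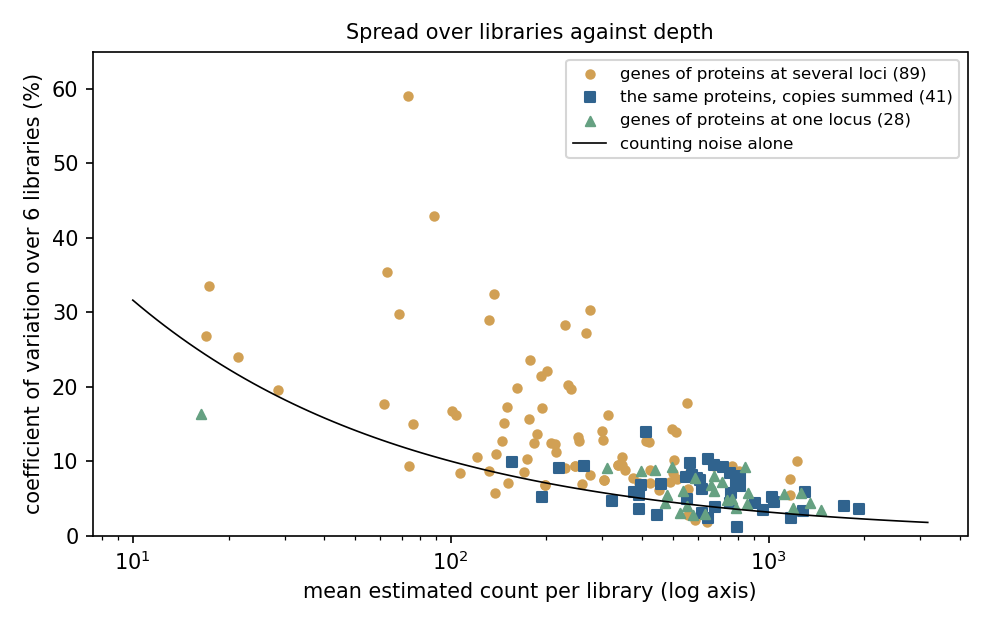
Coefficient of variation over the 6 libraries in percent (y axis) against the mean estimated count per library on a log axis (x axis), for genes of proteins at several loci (orange), the same proteins with copies summed (blue) and genes at 1 locus (green); the line is counting noise alone. The orange points reach 59.0%, while the blue ones end at 14%, close to the green ones.

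The 3 genes with an unadjusted p under 0.05 all belong to proteins at several loci. L30, the counterpart of bacterial L30, has its larger gene on scaffold NW_021838554.1 (LOC109428764, positions 4825073 to 4825937). It had 29.4, 26.1 and 28.8 CPM with overexpression, against 21.5, 25.7 and 22.2 CPM in controls. The groups did not overlap, but overexpression library 2 and control library 2 differed by less than 1 CPM. The means were 28.1 ± 1.74 CPM with overexpression and 23.1 ± 2.22 CPM in controls (SD, n = 3 each), and edgeR's log2 fold change was 0.28 ± 0.11 (SE), at an adjusted p of 0.963.

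The second L30 gene (LOC115269401, same scaffold, positions 6754454 to 6755291) had 13.0, 15.6 and 17.8 CPM with overexpression, against 16.5, 9.55 and 15.1 CPM in controls, which overlap. Summed, L30 stood at 42.4, 41.7 and 46.6 CPM with overexpression, against 38.0, 35.2 and 37.4 CPM in controls, with every overexpression library above every control. The log2 fold change of the sum was 0.24 ± 0.07 (SE), with an unadjusted edgeR p of 0.00908 and an adjusted p of 0.951. It did not pass the test.

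S12 forms part of the decoding centre, and its counterpart in *Drosophila* is the gene technical knockout. Its minor gene (LOC115254458, scaffold NW_021838621.1, positions 3044977 to 3132604) had 7.61, 7.38 and 7.05 CPM with overexpression, against 6.25, 5.11 and 5.41 CPM in controls, which do not overlap. Its log2 fold change was 0.40 ± 0.16 (SE; edgeR adjusted p 0.963). The larger S12 gene (LOC109405004, scaffold NW_021838932.1, positions 1313278 to 1405467) had 18.1, 15.4 and 15.4 CPM with overexpression, against 17.6, 16.8 and 18.8 CPM in controls. The sum of both was 25.7, 22.8 and 22.5 CPM with overexpression and 23.8, 21.9 and 24.2 CPM in controls, a log2 fold change of 0.02 ± 0.09 (SE).

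L35, the counterpart of bacterial L35, has 3 genes. The least read one (LOC115255987, scaffold NW_021838743.1, positions 3280837 to 3281372) had 1.04, 1.08 and 1.05 CPM with overexpression, against 1.44, 1.74 and 1.65 CPM in controls, or 16.33 to 17.21 counts with overexpression and 22.89 to 28.57 in controls. Its log2 fold change was -0.62 ± 0.26 (SE; edgeR adjusted p 0.963). The other 2 genes were estimated higher with overexpression, with log2 fold changes of 0.16 ± 0.15 (LOC109408357) and 0.13 ± 0.09 (LOC109426517), and the sum of all 3 gave 0.12 ± 0.08 (SE).

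Copies of L39 and L12 also differed in sign. L39, a protein without a bacterial counterpart, had LOC115264784 at 31.9, 27.2 and 25.2 CPM with overexpression, against 22.5, 23.9 and 26.6 CPM in controls. A second gene, LOC109402897, had 25.6, 26.9 and 27.4 CPM with overexpression, against 29.8, 28.4 and 29.99 CPM in controls, and a further one, LOC109411830, took fewer reads. Summed over all 3, L39 gave a log2 fold change of 0.00 ± 0.07 (SE).

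L12 makes the stalk that draws elongation factors to the ribosome. Its gene LOC109403475 had 13.0, 12.7 and 14.2 CPM with overexpression, against 14.3, 14.8 and 16.2 CPM in controls. Its partner LOC109400009 had 24.7, 26.9 and 24.2 CPM with overexpression, against 25.1, 21.8 and 23.2 CPM in controls. Summed, L12 gave 0.00 ± 0.07 (SE).

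With copies of each name summed before the test, over all genes, 0 of 69 mitochondrial ribosomal proteins passed edgeR's adjusted limit, against 0.0103% of all 9696 summed genes. Only L30 had an unadjusted p under 0.05, or 1.45% of the proteins against 5.08% of all summed genes. The fold changes ran from -0.12 to 0.24 on the log2 scale with a median of 0.02 and a median standard error of 0.08, so every protein lay within 0.25 of 0. In 43 proteins the estimate was higher with overexpression and in 26 it was lower. All overexpression libraries lay above all controls in 2 proteins, L30 and L33, where the share over all summed genes was 5.4%, and below them in 1, L38, where it was 5.34%. Control library 2 held the lowest value in 27 of the 69 proteins, and control library 3 the highest in 21.

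**Figure D5:**
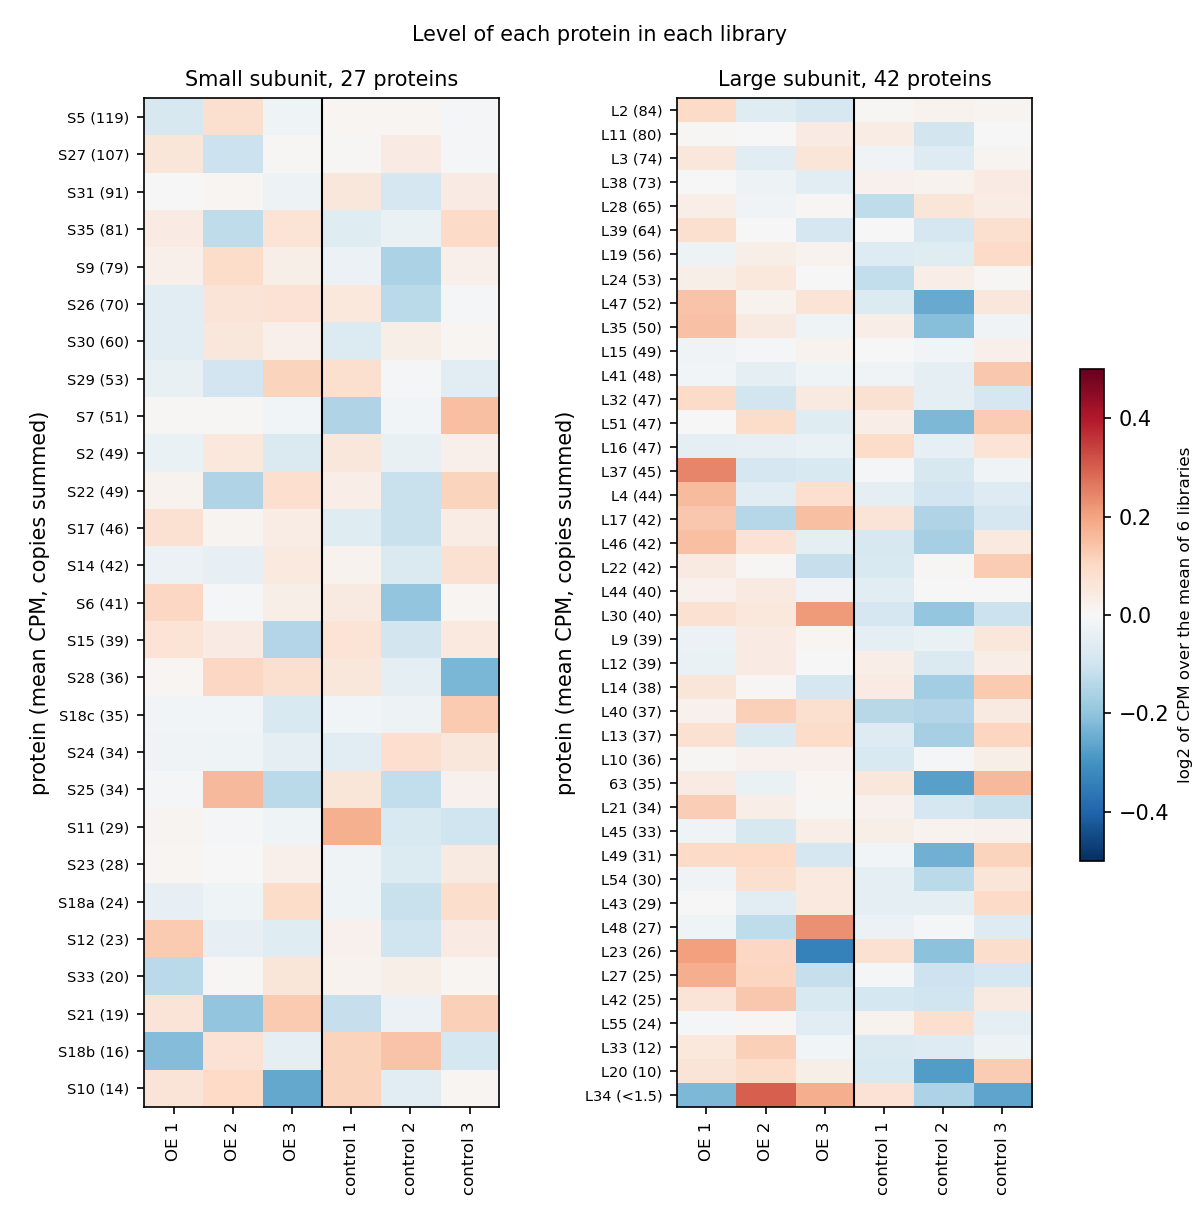
Level of each of the 69 proteins, copies summed, in each library as log2 of its CPM over the mean of the 6 libraries (colour; red high, blue low), with the mean CPM beside each name; overexpression libraries (OE) stand left of the black line and controls right of it. No block of colour follows the groups in either subunit, L30 is red in all 3 overexpression libraries (42.4, 41.7 and 46.6 CPM), and the column of control library 2 is blue in many rows.

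Genes of neighbouring functions were tested in the same fit. Of 132 tested cytosolic ribosomal protein genes, 0 passed edgeR's adjusted limit and 1 passed DESeq2's, 90 were estimated higher and 42 lower, and the median log2 fold change was 0.05. At an unadjusted p under 0.05, 12 of them were higher (background 2.42%) and 4 lower (background 2.5%). The smallest p among them was that of a 60S ribosomal protein L32 gene (LOC109402032), with 262 ± 26.6 CPM with overexpression and 192 ± 7.63 CPM in controls (SD, n = 3 each; edgeR adjusted p 0.748), and this was the gene that DESeq2 called (adjusted p 0.00242). Among 95 tested genes of oxidative phosphorylation, most of whose complexes hold the products of the mitochondrial ribosome, 0 passed and the median was 0.04. At an unadjusted p under 0.05, 4 were higher (background 2.42%) and 1 lower (background 2.5%). An ATP synthase subunit d gene (LOC115269424) had the smallest p, with 106 ± 3.32 CPM with overexpression and 89.2 ± 6.41 CPM in controls (SD, n = 3 each; edgeR adjusted p 0.963).

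Of 14 mitochondrial translation factors, which start, extend and end protein synthesis, 0 passed, 6 were estimated higher and 8 lower, and the median log2 fold change was -0.04. At an unadjusted p under 0.05, 1 was higher (background 2.42%) and 1 lower (background 2.5%). An IF-2 gene (LOC109411045) had 3.29 ± 0.737 CPM with overexpression and 1.78 ± 0.563 CPM in controls (SD, n = 3 each; edgeR adjusted p 0.963). A ribosome-recycling factor gene (LOC109408032) had 1.56 ± 0.356 CPM with overexpression and 2.49 ± 0.501 CPM in controls (SD, n = 3 each; edgeR adjusted p 0.963). Of 21 mitochondrial tRNA ligases, which load tRNAs with amino acids, 0 passed and all lay within 0.25 of 0, with a median of -0.01. Of 16 genes taken as acting in ribosome assembly and RNA modification 0 passed, with a median of 0.03; the pattern also caught enzymes with other substrates, such as the arginine methyltransferase NDUFAF7. Of 10 genes for mitochondrial DNA upkeep and transcription 0 passed, with a median of 0.01.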

How the data were processed

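Per the labels' protocols, ovary RNA was extracted with TRIzol and made into libraries with an MGIEasy kit; the submitters' processing notes name HISAT and Bowtie2. The counting program, the build and the use of strand were not stated in the sources used here. As deposited, the values were the authors' estimated counts per gene in 1 table; per the file itself they carry up to 2 decimals and no scaling between libraries. Of 34479 rows, 10950 were blank and left out (0 count columns belonged to no sample).

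Counts were rounded, filtered with filterByExpr and scaled by TMM in edgeR 4.0.16 (R 4.3.3). The quasi-likelihood F test compared overexpression with control over all 15540 tested genes, with no covariate, Benjamini-Hochberg adjustment and a limit of 0.05. Each standard error came from the fold change and its F value. CPM uses the TMM-scaled totals. The fit was tested on simulated data. Alternatives were DESeq2 1.42.0, limma-voom (limma 3.58.1), other scalings and filters, a replicate block, leaving out each library, and counts summed over genes of the same protein name.

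The members and the gene lists were chosen with earlier results of these data known. Genes named are, per subunit, the 6 with the highest and 3 with the lowest mean CPM, the 5 smallest p-values in each direction, and all copies of the 4 proteins at several loci with the highest summed CPM; others are named as chosen later or as partners. The 73 matches to newer gene IDs come from the RefSeq table of AalbF5, whose coordinates were not used. No sequences were used. The counting noise given covers counting error only, and not any splitting of reads between copies.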

Additional observations from a re-analysis of the deposited data

How the results depend on the processing

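None of the alternatives gave a called mitochondrial ribosomal protein gene: 0 passed with each scaling, filter, test and left-out library, and the lowest adjusted p of a named gene was 0.913. Over all genes the number called was 2, against 15 with DESeq2, 1 with copies summed and 0 to 2 with 1 library left out. Blocking on replicate number left 0 genes called (713 at an unadjusted p under 0.05); the numbers did not pair the libraries, whose deviations correlated at -0.01, 0.03 and 0.01. The median log2 fold change, 0.04, ranged from -0.004 without control library 2 to 0.05 without control library 3, and was 0.05 over the 28 genes at 1 locus. The log2 ratio of summed CPM ranged from -0.01 to 0.02 in the small subunit and from 0.01 to 0.07 in the large one with 1 library left out. With S18a and S30 counted as large it was 0.01 and 0.04. The choices of single-locus genes and of S18a and S30 were made after seeing the data. The number at an unadjusted p under 0.05 was 3, and 1 with the block, with DESeq2 and with copies summed. It was 2 with no filter, and 2 to 4 with 1 library left out.

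Of 403 comparisons of named genes with an alternative, 383 kept their direction and 20, in 10 genes, turned it. With no filter LOC109397826 turned to 0.00043. With 1 library left out, LOC109399671 ranged from -0.053 to 0.018, LOC115257535 from -0.038 to 0.061, LOC115265515 from -0.33 to 0.20, LOC109407408 from -0.27 to 0.42, LOC109399515 from -0.083 to 0.0074, LOC109397826 from -0.10 to 0.057, LOC109428035 from -0.086 to 0.0046, LOC115253993 from -0.32 to 0.044, LOC115258245 from -0.036 to 0.24 and LOC115266999 from -0.066 to 0.13. The cause was not tested. Depth limits the low genes most: at about 1 CPM standard errors were 0.26 to 0.38.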
